A study of Mus musculus with 6 samples.

Results

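The genes examined were the mouse collagen genes other than those of type IV collagen. They were taken from the GENCODE M21 annotation of mm10 as protein-coding genes whose symbol is Col, a number, the letter a and a number, and the 6 Col4a genes were left out. The rule gave 38 of 21938 protein-coding genes, on 13 chromosomes, and the other 21900 genes served as the comparison. The rule itself uses symbols and no measured value.

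Collagens are secreted or membrane-bound proteins built of triple helices of alpha chains, and each Col gene encodes an alpha chain. Fibril-forming collagens make the load-bearing fibres of connective tissue, fibril-associated collagens decorate them, type VI forms beaded filaments, and the multiplexins Col15a1 and Col18a1 sit in and beside basement membranes. Extraembryonic endoderm (XEN) cells represent the primitive endoderm, whose descendants lay down a basement membrane rich in laminin and type IV collagen. GATA4 and GATA6 are zinc-finger transcription factors of that lineage which bind DNA at the core GATA.

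CUT&RUN, which releases antibody-bound chromatin by tethered nuclease cleavage, was carried out for GATA4 in 3 libraries and for GATA6 in 3 libraries. The labels give all 6 as XEN cells of the line 3F2 and name no treatment. The 3F XEN lines came from mice homozygous at 3 alleles, Oct4-GFP, R26 M2rtTA and the doxycycline-inducible Col1a1 TetO-OKSmCh, and 3F2 was derived under ES cell conditions. The study's methods text names the line 3F6 beside 3F2 and fewer replicates than the labels, and nothing says that replicates were separate cultures, so any p-value measures only the spread between these libraries. The Col1a1 locus of these cells therefore carries an inserted cassette that is not in the mm10 sequence. The files hold no expression values, so neither the cell identity nor the activity of any collagen gene could be checked here.

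The values were regions of enriched signal called separately in each library, 42446 to 49597 per library, with a total and a maximum signal for each. The labels state 30000000 reads per sample, and the read totals themselves are not in the region lists. The median maximum signal of a called region was 4 in each of the 6 libraries. A combined region is a region called in all 3 libraries of a factor, and there were 8282 for GATA4 and 5170 for GATA6. Distances run from the nearest annotated transcription start site (TSS) of a gene to the nearest edge of a region, with 0 where the region covers the TSS. No control library was used here, so no background measured in the same way can be set beside these values.

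Fewer collagen genes than other genes had a combined region near a start site, and none had a combined region at a promoter. Within 50 kb of a TSS, 12 of the 38 collagen genes (31.6%, exact 95% interval 17.5 to 48.7%) had a combined GATA4 region, where 47.7% of all protein-coding genes did. For GATA6 the count was 10 of 38 (26.3%, 13.4 to 43.1%) against 38.0%. For either factor it was 14 of 38 (36.8%, 21.8 to 54.0%) against 52.2%, and 8 of 38 collagen genes (21.1%) had both, against 33.5% of other genes. Within 1 kb of a TSS, 0 of 38 collagen genes had a combined region of either factor, which allows a share of up to 9.25% by the exact interval. In that window 19.8% of all protein-coding genes had a GATA4 region, 13.8% a GATA6 region and 23.1% either. Each 50 kb interval given here included the share of all protein-coding genes, and the 1 kb interval did not. The intervals cover counting error over genes only, genes are not replicates, and no test of the difference between gene groups was made.

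**Figure D1:**
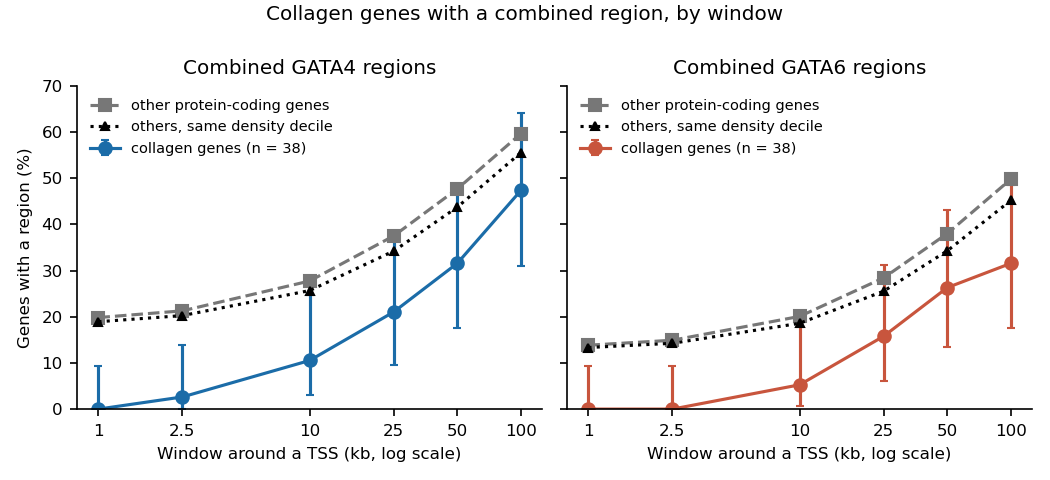
Percent of genes with a combined GATA4 (left) or GATA6 (right) region within 1 to 100 kb of a TSS (log axis), for the 38 collagen genes with exact 95% intervals, for other protein-coding genes and for other genes of the same gene density decile. The collagen share starts at 0 of 38 in the 1 kb window and lies below the other genes at every window. The GATA4 intervals reach the other genes at 50 and 100 kb. The GATA6 intervals reach them at 25 and 50 kb but not at 100 kb. At 100 kb the GATA6 interval does reach the other genes of the same density decile.

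The gap was widest in relative terms close to the start sites. Within 10 kb, 4 collagen genes had a GATA4 region (10.5%) against 27.7% of other genes, and 2 had a GATA6 region (5.26%) against 20.1%. Within 100 kb, 18 had a GATA4 region (47.4%) against 59.7%, and 12 had a GATA6 region (31.6%) against 49.8%. The median distance from a collagen gene to the nearest GATA4 region was 130 kb, against 56.8 kb for other genes. To the nearest GATA6 region it was 146 kb against 101 kb.

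Collagen genes lie in poorer gene neighbourhoods than the rest of the genome, and the gap was smaller, though still present, against genes of like density. A collagen gene had a median of 12 other protein-coding genes with a TSS within 500 kb of its midpoint, and other genes had 16. Where each collagen gene was set against the other genes of its own decile of gene density, 48.4% of those genes had a region of either factor within 50 kb, against 36.8% of collagen genes. For GATA4 alone the density decile share was 43.8% and for GATA6 34.3%. Collagen genes are also long (median 105 kb against 17.4 kb) and have more annotated start sites (median 4 against 3). The 50 kb windows around all start sites of a gene together cover a median of 161 kb against 103 kb. Other genes of the same decile of window size had a region in 56.6% of cases, and those of the same decile of gene length in 50.6%. The observed over expected ratio of CpG dinucleotides was lower at collagen promoters than at others (median 0.407 against 0.525). Their GC content was higher (median 58.8% against 55%). Genes of the same decile of the CpG ratio had a region in 49% of cases. Matching on gene length and on the CpG ratio was not planned in advance. Within 1 kb of a TSS the share of other genes of the same CpG decile was 19.1% for either factor.

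The size of the gap depended on how regions at promoters were treated. A region was placed at a promoter where it lay within 1 kb of a TSS. When regions at the promoter of another gene were left out, and those at a gene's own promoter kept, the GATA4 shares were 10.5% of collagen genes and 30.5% of other genes. The GATA6 shares were 15.8% and 21.4%, and those for either factor 21.1% and 34.6%. In a setting added after the data were seen, counting only combined regions that lay away from every protein-coding promoter, 8 collagen genes (21.1%) had a region of either factor within 50 kb against 24.4% of other genes. For GATA4 the shares were then 10.5% and 21.6%. For GATA6 the direction turned, with 15.8% of collagen genes and 13.8% of other genes. When the Col19a1 region described further on was left out as well, the GATA6 share of collagen genes was 13.2%.

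Combined regions near collagen genes often lay at the promoters of neighbours. Of 16 combined GATA4 regions within 50 kb of a collagen TSS, 12 (75%) lay within 1 kb of a TSS of another protein-coding gene. For GATA6 it was 8 of 14 (57.1%). Of all combined regions, 48.3% of GATA4 and 53.4% of GATA6 regions lay within 1 kb of a protein-coding TSS. The GATA6 share near collagen genes was thus close to that of the whole list. The whole list also holds regions far from any gene, so these shares are not matched to regions near a TSS. For Col7a1, Col8a2, Col10a1, Col16a1, Col18a1 and Col28a1, every combined region of either factor within 50 kb lay at such a promoter. The other 8 genes with a region had at least 1 away from neighbouring promoters, namely Col1a1, Col2a1, Col9a3, Col11a2, Col15a1, Col19a1, Col20a1 and Col23a1. Distances often ran to internal start sites: with only the most upstream TSS of each gene, 9 collagen genes had a GATA4 region within 50 kb, 7 a GATA6 region and 11 either. Under the same setting 44.9%, 35.6% and 49.4% of other genes did. A collagen TSS was the nearest protein-coding TSS for 2 of the 16 GATA4 regions and 3 of the 14 GATA6 regions. The same was not counted around other genes.

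**Figure D2:**
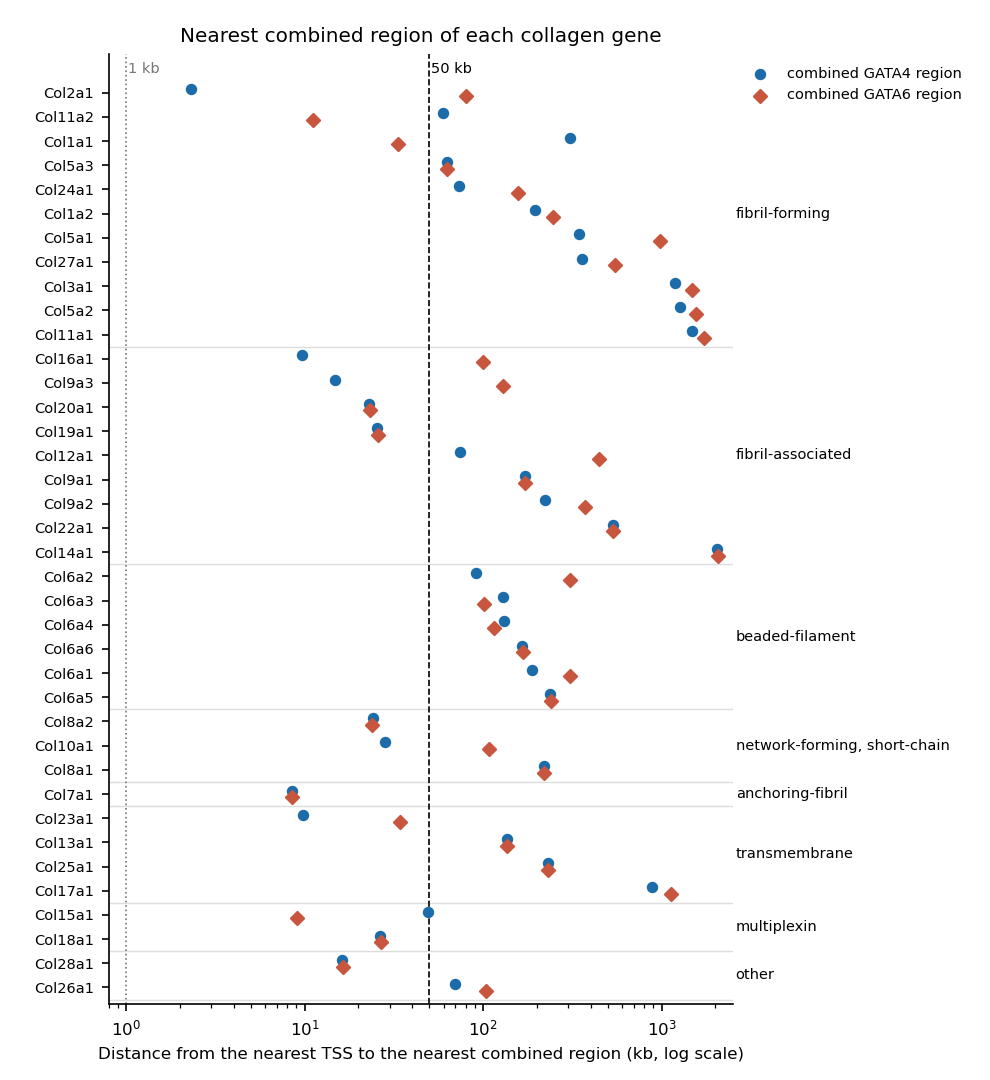
Distance in kb (log axis) from the nearest TSS of each of the 38 collagen genes to the nearest combined GATA4 region (circles) and GATA6 region (diamonds), with genes grouped by collagen class. No point lies left of the 1 kb line, all 6 beaded-filament genes lie right of the 50 kb line, and Col2a1 has the closest region at 2.31 kb.

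Inside collagen genes, combined regions were rare. The 38 genes span 4.32 Mb and held 2 combined GATA4 regions and 2 combined GATA6 regions by midpoint, which is 0.0463 per 100 kb for each factor (exact Poisson 95% interval 0.00561 to 0.167). Other genes held 0.395 GATA4 and 0.25 GATA6 regions per 100 kb. In all, 14.1% of protein-coding genes had a GATA4 region inside and 9.79% a GATA6 region, against 2 of 38 collagen genes (5.26%) for each factor. Other genes of the same length decile had one inside in 22.3% and 14.9% of cases. With promoter regions left out, other genes held 0.187 GATA4 regions per 100 kb.

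The density of regions was lower in the single libraries too. Called regions inside collagen genes numbered 50, 46 and 43 in the GATA4 libraries and 47, 47 and 50 in the GATA6 libraries. These were 0.996 to 1.16 per 100 kb, against 1.91 to 2.27 per 100 kb in other genes, and the collagen value was lower in 6 of 6 libraries. The share of genes with at least 1 called region inside ran the other way, with 44.7 to 63.2% of collagen genes against 38.4 to 42.6% of other genes. Other genes of the same length decile had one in 65.8 to 70.3% of cases, above the collagen share in each library.

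**Figure D3:**
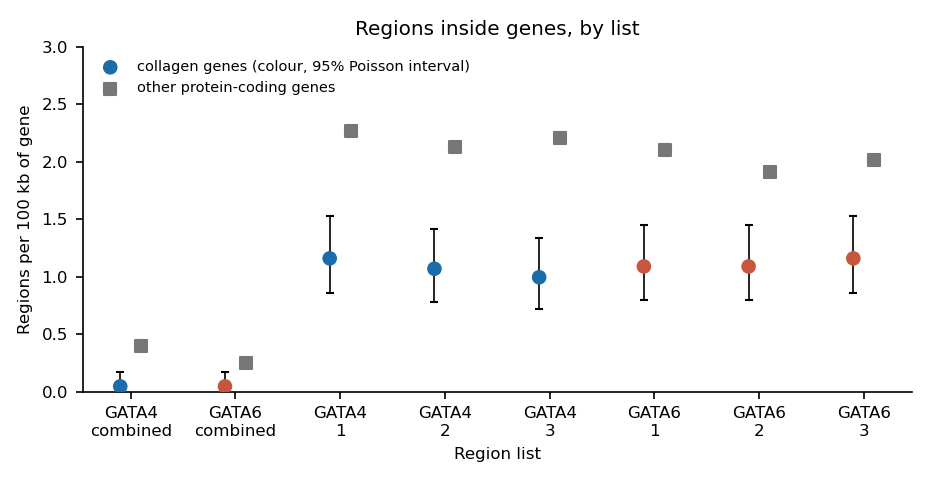
Regions with their midpoint inside genes per 100 kb of gene, for the 2 combined lists and the 6 libraries, in collagen genes (coloured circles with exact 95% Poisson intervals) and other protein-coding genes (grey squares). In every list the collagen value lies below that of other genes, and the library values for collagen genes lie between 0.996 and 1.16.

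The members with a combined region of their own, meaning inside the gene or up to 5 kb upstream, were Col23a1, Col15a1 and Col2a1. All 4 of these regions were intronic. Sequences are printed for 3 of them because these are the collagen genes' own combined sites. Letters come from the plus strand of GRCm38 (mm10) around the midpoint of each region, and capitals mark the 4 forms of the GATA site that were searched on either strand. These are AGATAA and its variant AGATAG, and likewise TGATAA and its variant TGATAG. Such a match occurs within 300 bases in 71.0% of all combined GATA4 regions away from start sites and in 65.4% of the GATA6 ones, so a match is a description and not a mapped site.

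Col23a1, which encodes a transmembrane collagen, was the only member with its own combined region of both factors, and these were different regions. The GATA4 region lay in an intron, outside the 50 kb window of the start sites. Its maximum signal was 4, 7 and 3 in the GATA4 libraries, and it was not called in any of the 3 GATA6 libraries. The GATA6 region at chr11:51539708-51540123 lay in an intron 34.3 kb from an internal start site and 250 kb from the most upstream one. Its maximum signal was 13, 6 and 10 in the GATA6 libraries and 5 and 9 in GATA4 replicates 1 and 3, with no call in GATA4 replicate 2. By total signal the GATA4 region stood at percentiles 67.1, 86.5 and 14.6 of the regions of the GATA4 libraries. The GATA6 region was called in 5 of 6 libraries. The printed window of the GATA6 region, chr11:51539766-51540065, held 2 matches.
Col23a1 intron, GATA6 region: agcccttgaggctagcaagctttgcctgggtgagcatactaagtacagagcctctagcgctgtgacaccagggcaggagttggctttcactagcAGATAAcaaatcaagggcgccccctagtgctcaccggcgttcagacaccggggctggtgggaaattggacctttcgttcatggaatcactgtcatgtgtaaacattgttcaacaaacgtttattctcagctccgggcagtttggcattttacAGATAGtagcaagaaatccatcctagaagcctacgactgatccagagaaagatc
Col23a1 also had combined GATA4 regions at the promoters of Phykpl (9.83 kb away), of BC049762 and Clk4 (26.6 kb) and of Nhp2 (44.7 kb). The Phykpl and Nhp2 distances ran to an internal start site, and these regions lay 294 and 329 kb from the most upstream one. The most upstream TSS of Col23a1 was itself reached by a called region within 1 kb only in GATA4 replicates 1 and 3, with maximum signals of 3 and 2.

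Col15a1 encodes a multiplexin of the basement membrane zone. Its GATA6 region at chr4:47278403-47279045 lay in an intron, 9.01 kb from an internal start site and 70.2 kb from the most upstream one. Maximum signal was 9, 5 and 5 in the GATA6 libraries and 6 and 5 in GATA4 replicates 1 and 2, so that only GATA4 replicate 3 lacked a call. By total signal the region stood at percentiles 84.0, 52.6 and 22.9 of the regions of the GATA6 libraries. In GATA4 replicates 1 and 2 the percentiles were 87.9 and 42.8. The printed window, chr4:47278575-47278874, held 3 matches.
Col15a1 intron, GATA6 region: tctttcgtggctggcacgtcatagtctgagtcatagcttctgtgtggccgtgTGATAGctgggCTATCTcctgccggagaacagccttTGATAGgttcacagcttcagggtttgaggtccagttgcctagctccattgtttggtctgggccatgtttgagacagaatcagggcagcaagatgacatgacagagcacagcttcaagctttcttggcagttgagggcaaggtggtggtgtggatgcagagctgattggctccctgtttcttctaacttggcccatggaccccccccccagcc
A combined GATA4 region at the promoter of the TGF-beta receptor gene Tgfbr1 was the one that placed Col15a1 just inside the window for GATA4. It lay 49.2 kb from an internal start site and 145 kb from the most upstream one. It was called in the 3 GATA4 libraries and in none of the GATA6 libraries.

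Col2a1 encodes the main fibril-forming chain of cartilage. Its GATA4 region at chr15:97992783-97993224 lay in an intron, 2.31 kb from an internal start site and 11.5 kb from the most upstream one. Maximum signal was 8, 6 and 6 in the GATA4 libraries, and of the GATA6 libraries only replicate 3 had a call, at 6. By total signal the region stood at percentiles 50.9, 25 and 20.9 of the regions of the GATA4 libraries, near the middle or lower. The printed window, chr15:97992854-97993153, held none of the 4 forms.
Col2a1 intron, GATA4 region: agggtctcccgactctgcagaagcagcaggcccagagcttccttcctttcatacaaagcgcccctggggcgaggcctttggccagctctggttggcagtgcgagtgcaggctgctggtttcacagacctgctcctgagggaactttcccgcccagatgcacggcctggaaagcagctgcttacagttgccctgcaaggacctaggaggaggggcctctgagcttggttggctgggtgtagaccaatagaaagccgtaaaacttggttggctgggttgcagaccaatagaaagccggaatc
The nearest combined GATA6 region to Col2a1 was 80.3 kb away.

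**Figure D4:**
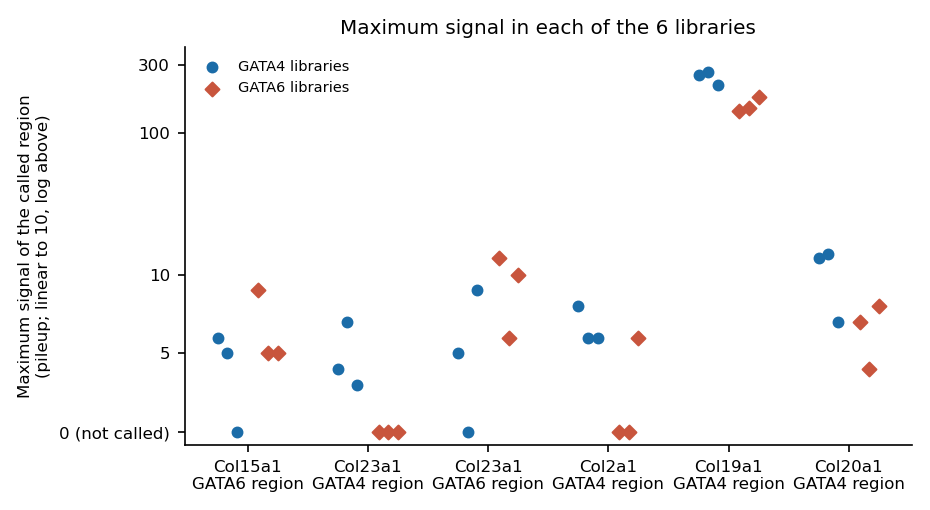
Maximum signal (pileup of fragments, linear to 10 and logarithmic above) of the called region in each GATA4 library (circles) and GATA6 library (diamonds), at the 4 combined regions inside collagen genes and at the regions upstream of Col19a1 and Col20a1; 0 means not called. The Col19a1 region reaches 142 to 268 in the 6 libraries, where the regions inside collagen genes do not exceed 13.

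Among the fibril-forming collagens, 3 of 11 genes (27.3%) had a combined region of either factor within 50 kb, against 52.2% of all protein-coding genes. Beside Col2a1, both of the others had GATA6 only. The collagen classes are small, and differences between them were not tested. Col1a1 encodes the main chain of type I collagen. It had a GATA6 region 33.5 kb downstream of an internal start site and 42.6 kb from the most upstream one. The region lay 2505 bp from the TSS of Sgca. Its maximum signal was 9, 7 and 3 in the GATA6 libraries, and GATA4 replicate 2 had a call at 6. The nearest combined GATA4 region was 306 kb away. The inserted cassette at this locus was not in the reference and its part in these values was not tested. Col1a2, the partner chain, had its nearest regions at 195 kb for GATA4 and 247 kb for GATA6. Col11a2 had a GATA6 region 11.1 kb upstream at the promoter of H2-Ke6 and another 39.0 kb away, 9013 bp from the TSS of H2-Oa. The region near H2-Oa lay 62.0 kb from the most upstream start site of Col11a2. The nearest GATA4 region of Col11a2, at 59.9 kb, was the closest of those outside the window for either factor.

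Other fibril-forming genes lay far from any combined region. For Col3a1 the distances were 1190 kb to GATA4 and 1480 kb to GATA6, for Col5a2, its neighbour on chromosome 1, 1270 and 1570 kb, and for Col11a1 1480 and 1720 kb. Col5a1 lay at 346 and 976 kb. These are genes in sparse neighbourhoods, with 2 protein-coding genes within 500 kb for Col3a1, 4 for Col5a2, 1 for Col11a1 and 6 for Col5a1. The part of gene density in the distances of single genes was not tested. Col5a3 and Col24a1 lay closer, with GATA4 regions at 62.5 and 73.3 kb.

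Among the fibril-associated collagens, 4 of 9 genes (44.4%) had a region, namely Col16a1, Col9a3, Col20a1 and Col19a1, against 52.2% of all protein-coding genes. Col16a1 had a GATA4 region at the promoter of Pef1, 9.69 kb from an internal start site and 59.5 kb from its most upstream one. Col9a3, which encodes a chain of cartilage collagen IX, had a GATA4 region 14.9 kb upstream at the promoter of Mrgbp and another 30.3 kb upstream with maximum signals of 10, 6 and 8. Its partner chains Col9a1 and Col9a2 had their nearest GATA4 regions at 172 and 223 kb. Col12a1 lay at 73.8 kb from GATA4 and 446 kb from GATA6, and Col22a1 at 534 kb from each. The farthest member of all was Col14a1, at 2040 kb from GATA4 and 2060 kb from GATA6.

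Col20a1 and Col19a1 were the members with a combined region called in all 6 libraries away from promoters, and their sequences are given for that reason, a choice made after the values were seen. The Col20a1 region lay 22.9 kb upstream at chr2:180962603-180963658, and 3567 bp from the TSS of Arfgap1, which was its nearest gene. Maximum signal was 13, 14 and 7 in the GATA4 libraries and 7, 4 and 8 in the GATA6 libraries. By total signal it stood at percentiles 69.0 to 98.3 of the libraries. The printed window, chr2:180962981-180963280, held 2 matches.
Col20a1 upstream region: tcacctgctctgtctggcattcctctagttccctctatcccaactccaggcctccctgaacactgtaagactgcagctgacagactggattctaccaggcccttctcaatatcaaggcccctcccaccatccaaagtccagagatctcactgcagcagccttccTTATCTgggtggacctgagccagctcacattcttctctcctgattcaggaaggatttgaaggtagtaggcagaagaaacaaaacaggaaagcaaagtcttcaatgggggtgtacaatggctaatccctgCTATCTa

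Col19a1 owed its place to a single region unlike the rest. The region at chr1:24613064-24613170 lay 25.6 kb upstream of Col19a1 and was combined for both factors. Maximum signal was 255, 268 and 216 in the GATA4 libraries and 142, 148 and 178 in the GATA6 libraries, and it ranked 2 by maximum signal in each of the 6. The called widths were 98 to 107 bp. Of the 107 bases, 106 (99.1%) were identical in the best local alignment with the mitochondrial genome of the same assembly. For the other combined regions within 50 kb of a collagen TSS or inside a collagen gene, at most 17.0% of the bases were. Regions that were not combined were not aligned. The authors discarded reads that aligned to chrM, and the Col19a1 region lies on chromosome 1. The part of mitochondrial DNA in its signal was not tested.
Col19a1 upstream region: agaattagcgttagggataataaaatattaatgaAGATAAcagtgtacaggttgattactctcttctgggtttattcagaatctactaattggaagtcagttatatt
Without this region the counts were 11 of 38 for GATA4, 9 for GATA6 and 13 for either factor.

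The beaded-filament collagens had 0 of 6 genes with a combined region of either factor within 50 kb, against 52.2% of all protein-coding genes. Col6a2 was the closest for GATA4 at 91.4 kb and Col6a3 for GATA6 at 101 kb. To the nearest GATA4 region, Col6a3 lay at 129 kb, Col6a4 at 131 kb, Col6a6 at 166 kb, Col6a1 at 187 kb and Col6a5 at 238 kb. Col6a4, Col6a5 and Col6a6 adjoin each other on chromosome 9 and Col6a1 and Col6a2 on chromosome 10, so their distances are not independent. Single libraries did hold called regions here. Col6a1 had an intronic region called in GATA6 replicates 1 and 3, with maximum signals of 4 and 3, and in no GATA4 library.

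The remaining classes were small. Col7a1, the anchoring-fibril collagen of skin, had strong combined regions of both factors, at the promoter of Pfkfb4 (8.5 kb from Col7a1) and of Uqcrc1 (16.4 kb). The Pfkfb4 distance ran to an internal start site, and the most upstream one was 37.8 kb away. At Pfkfb4 maximum signal was 13, 17 and 18 in the GATA4 libraries and 11, 14 and 8 in the GATA6 libraries, all at percentile 93.9 or above by total signal. At Uqcrc1 it was 11, 7 and 10 and then 9 in each of the GATA6 libraries. Of the short-chain collagens, Col8a2 had regions of both factors at the promoter of Trappc3 24.2 kb away, and Col10a1 had a GATA4 region at the promoter of Nt5dc1 28.3 kb away. Col8a1 lay at 219 kb from GATA4. Of the transmembrane collagens only Col23a1 had a region within 50 kb, and Col13a1 and Col25a1 lay at 136 and 230 kb from GATA4. Col17a1 lay at 888 kb from GATA4 and 1130 kb from GATA6. Col26a1, of no larger class, lay at 69.8 kb from GATA4 and 103 kb from GATA6. Col28a1 had a region of both factors at the promoter of Mios, 16.2 kb away.

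Col18a1, the multiplexin that yields endostatin, was near a combined region of both factors at the promoter of Slc19a1, 26.5 kb from an internal start site and 133 kb from its most upstream one. It was also the only member whose most upstream TSS was covered by a called region in more than 2 libraries. The calls were in GATA4 replicates 1 and 2, at maximum signals of 6 and 8, and in GATA6 replicates 2 and 3, at 9 and 8. With GATA4 replicate 3 and GATA6 replicate 1 lacking a call, it was a combined region of neither factor. An intronic region 35.5 kb from the most upstream TSS was called in 4 of 6 libraries as well, with maximum signals of 10 and 6 in GATA4 replicates 1 and 3 and 10 and 10 in GATA6 replicates 2 and 3.

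At the level of single libraries nearly every collagen gene had some called region within 50 kb, and few had one at a start site. Within 50 kb, 35, 32 and 31 of the 38 genes had a called region in the GATA4 libraries and 31, 32 and 32 in the GATA6 libraries. The mean share was 86.0% ± 5.48 (SD, n = 3) for GATA4 and 83.3% ± 1.52 (SD, n = 3) for GATA6. The difference of 2.63 percentage points was within the spread of the libraries (p = 0.9, two-sided exact permutation test, for which the smallest possible p is 0.1). Other genes had a called region in 81.4 to 84.3% of cases, so without matching this window did not separate collagen genes from the rest in single libraries. The comparison was not matched on window size, and collagen windows were the larger (median 161 kb against 103 kb).

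Within 1 kb of a TSS the counts were 5, 6 and 7 genes in the GATA4 libraries and 5, 4 and 5 in the GATA6 libraries. These are 10.5 to 18.4% of collagen genes, against 30.6 to 36.7% of other genes, and the collagen share was the lower in 6 of 6 libraries. GATA4 and GATA6 did not separate in this window either (3.51 percentage points, p = 0.3 by the same exact permutation test). In no library was a called region found within 1 kb for 20 of 38 collagen genes (52.6%), against 40.3% of all protein-coding genes. A called region in all 6 libraries was found for 0 of 38, against 12.2%. Calls in every library within 50 kb were found for 17 collagen genes (44.7%) and 60.9% of other genes.

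**Figure D5:**
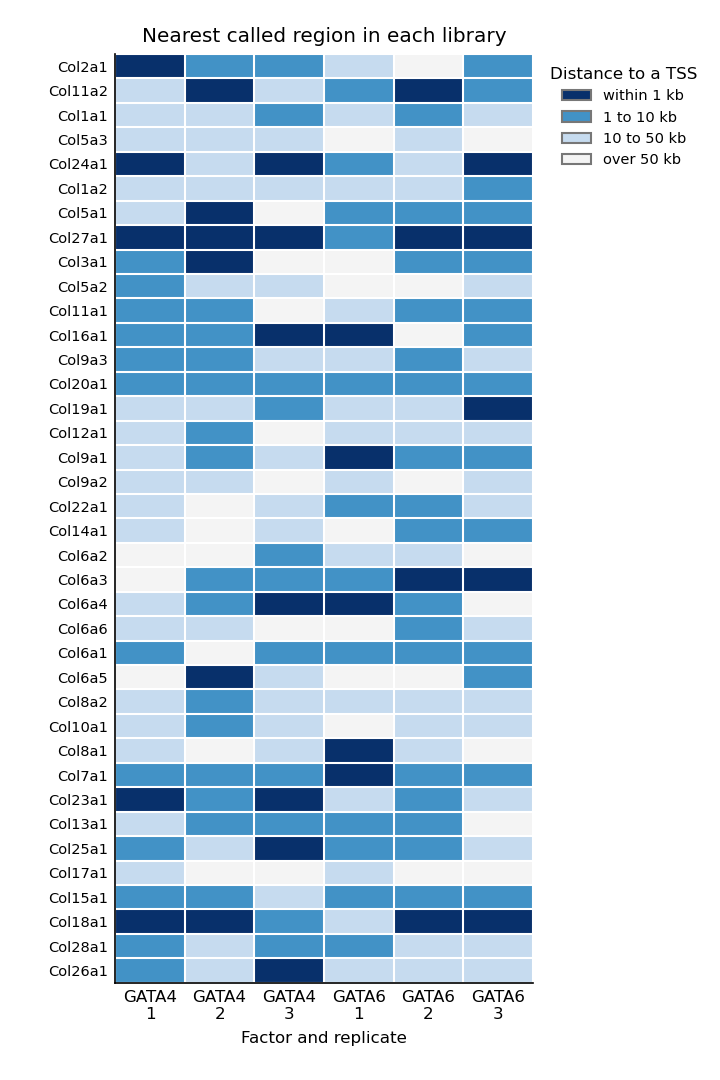
Distance class of the nearest called region to a TSS of each of the 38 collagen genes (rows, in the order of the distance plot) in each of the 6 libraries (columns). Dark squares, within 1 kb, are scattered over genes and libraries, Col27a1 has the most with 5 of 6, and Col17a1 has a call within 50 kb in 2 of 6 libraries.

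Col27a1, a fibril-forming collagen, had the most libraries with a call within 1 kb of a start site, 5 of 6, although its nearest combined regions were 356 kb away for GATA4 and 551 kb for GATA6. The calls lay at different positions. GATA4 replicates 1 and 2 had regions 14 and 29 bp from an internal TSS, 1408 bp downstream of the most upstream one, with maximum signals of 9 and 7. GATA4 replicates 2 and 3 and GATA6 replicate 2 had regions 656, 630 and 959 bp from the most upstream TSS, with maximum signals of 4, 3 and 4. No member lacked a called region within 50 kb in all 6 libraries. Col17a1, an epithelial transmembrane collagen, had the fewest, in 1 GATA4 and 1 GATA6 library.

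The regions near collagen genes carried GATA sites about as often as combined regions elsewhere, as far as their small number shows. Within 100 bp of the midpoint, 3 of 4 GATA4 regions away from start sites held 1 of the 4 forms (75%), against 59.0% of all such GATA4 regions. For GATA6 it was 4 of 7 (57.1%) against 52.5%. Here the midpoint of a region, not its edge, had to lie within 1 kb of a TSS to count as a promoter region, so that 7 of the 14 GATA6 regions did. By the edge rule used above, 4 of 6 GATA6 regions away from promoters and 2 of 8 at promoters held a match. At promoters the counts were 2 of 12 (16.7%) against 17.5% for GATA4 and 2 of 7 (28.6%) against 15.2% for GATA6.

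Genes that act on collagens were counted in the same way. Of 31 genes for collagen modification, folding and processing, such as Serpinh1, the collagen chaperone, and the prolyl hydroxylase subunits P4ha1 and P4hb, 20 (64.5%) had a combined region of either factor within 50 kb and 12 within 1 kb, beside 52.2% and 23.1% of all protein-coding genes. For GATA4 alone it was 19 and 11 genes. Of 10 collagen receptor genes, 7 had a region of either factor within 50 kb and 1 within 1 kb. Of 11 genes for collagen-binding fibril regulators, 3 had a region within 50 kb, namely Fn1, Fmod and Sparc, and 0 within 1 kb. Of the 6 type IV genes, Col4a1 and Col4a2 had a GATA4 region within 50 kb and 0 of 6 had one within 1 kb. The GATA4 regions of Col4a1 and Sparc fell just outside the 1 kb window, at 1017 and 1075 bp from a TSS. Col4a2 had its nearest GATA4 region at 4.51 kb and its nearest GATA6 region at 10.0 kb. These lists were described by their counts and not tested.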

How the data were processed

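Per the labels and methods, the authors mapped read pairs on mm10 (Bowtie2 2.3.4.1), discarded duplicate, poorly mapped, chrM and blacklisted reads, and ran SEACR 1.3 on each library. The deposited lists give each region's total and maximum signal, a pileup not scaled for depth, so signal was ranked only within a library. The names of the deposited lists carry the stringent mode, the methods text another, and which was used could not be settled here. The deposited combined lists hold merged regions called in all 3 libraries with an overlap of at least 1 bp, and all 13452 were recovered from the library lists. Groups came from the labels.

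Distances to every TSS of GENCODE M21 protein-coding genes were computed in Python 3.11.15 with numpy 2.4.6, pandas 2.3.3 and scipy 1.17.1, by code tested on simulated data. Other genes were standardised to the members' deciles of gene density. Intervals are exact (Clopper-Pearson or Poisson) at 95% and cover counting error only. Factors were compared by exact permutation of libraries. Sequences were read from GRCm38.p6, and that of 1 region is not reported here. Genes were described in full where they had a combined region of their own, or stood nearest the 50 kb limit. The members and lists were chosen with earlier results of these data known. Alternatives covered window, start sites, lists, libraries and matching.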

Additional observations from a re-analysis of the deposited data

How the results depend on the processing

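Across the 54 alternatives for the shares of collagen genes with a region near a TSS, with windows of 1 to 100 kb, collagen genes lay below other genes in 53. Several of these settings were not planned in advance. They were the windows of 1 and 2.5 kb, regions away from every promoter only, and the settings without the Col19a1 region. The exception, in 1 of the settings added after the data were seen, was GATA6 with regions away from every promoter only. There collagen genes were higher by 1.96 percentage points. Leaving out the Col19a1 region as well turned this to -0.673 points. Against genes of like density the difference for either factor was -11.5 points. It ranged from -17.3 with stricter lists, of regions at or above their library's median total signal, to -2.19 with regions away from every promoter only. With genes matched on window size instead of density it was -19.8. Matching on promoter CpG or on gene length was also not planned in advance, and gave -12.1 and -13.8. Leaving out a library gave -18.1 to -8.42 points for GATA4, -18.3 to -11.1 for GATA6, -18.1 to -8.36 for either factor and -14.5 to -4.77 against genes of like density, and the smallest GATA4 value was the one without GATA4 replicate 3.

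The difference between GATA4 and GATA6 in the share of collagen genes with a called region turned to -0.877 points with a 10 kb window, and it ranged from -0.439 to 4.82 points when a library was left out, the lowest without GATA4 replicate 1. Replicate numbers did not pair the libraries, with correlations of -0.0109 to 0.00454 between libraries of the same number, and the replicate block gave the same 2.63 points (exact sign-flip p = 1.0, smallest possible 0.25).

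GATA4 regions inside collagen genes differed from other genes by -0.349 per 100 kb. The difference was -0.676 with regions in at least 2 of 3 libraries, -0.14 with regions away from every promoter only, -0.203 for the GATA6 list and -0.47 to -0.446 without a library. The share of the collagen genes' own GATA4 regions with a GATA site was 50% of 2 regions. It was 100% of the same 2 regions when centred on the maximum signal or with 250 bp to each side. The Col2a1 region held 0 matches within its called bounds, so the match gained there reached outside the region. The other settings concern other regions. For the GATA6 list it was 100% of 2 GATA6 regions. Without a GATA4 library it ran from 2 of 5 to 4 of 6 regions (40.0 to 66.7%).

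The limits are few members, no control library and no depth in the region lists. Absence of a combined region is not absence of binding. Regions of neighbouring genes were counted for several genes, and no region was linked to a target.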
